A study of Homo sapiens with 4 samples.

Results

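The collagen genes were examined in RNA-Seq data of MDA-MB-231 cells, a line from a triple-negative breast cancer, and of LM2-4175, which shares its origin and metastasizes readily to the lung. Members were the genes whose symbol in the deposited table has the form COL, a number, A and a number, and 44 of the 57815 genes in the table met this rule. Genes such as COLQ or the collectins, whose proteins hold collagen-like stretches, do not have such a symbol and were not included. Both cell lines were untreated and grown in the same serum-containing medium, and each was sequenced in 2 libraries, 4 in all. Each group is therefore 1 cell line, and the labels do not say whether its libraries came from separate cultures. In the table the authors combined the libraries of each line into 1 value per gene, with a bound on either side. No SD and no test between replicates could be computed, so the differences below have no replicate check, and n is 1 pooled value per cell line throughout.

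Collagens are proteins of the extracellular matrix in which alpha chains wind into a triple helix. Fibril-forming types such as I and V build the fibrils of connective tissue, type IV builds the network of basement membranes, and type VI forms beaded filaments in the pericellular matrix. Further members decorate fibrils, anchor basement membranes to the stroma, or span the plasma membrane. Because several types are built from chains of different genes, the level of each chain gene bears on which trimers a cell can assemble, and breast cancer cells meet collagen both as a barrier and as a ligand for their adhesion receptors.

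The status was OK for all 44 genes in both lines, and 20 of them (45.45%) reached a mean of 0.5 FPKM. FPKM counts fragments relative to transcript length and to the fragments mapped in all, so levels can be compared between genes. Genes that reached this mean were called where FPKM + 1 differed between the lines by 1.5-fold or more and the interval between the authors' bounds in one line lay wholly above that in the other. By this rule 4 of the 20 collagen genes were higher (COL1A1, COL6A1, COL6A2 and COL13A1) and 6 were lower (COL1A2, COL4A2, COL5A1, COL6A3, COL12A1 and COL18A1). Among all 13911 genes that met the same filter, 9.27% were called, with 4.67% higher and 4.61% lower, whereas 50% of the collagen genes were called. The median size of the change, taken without its sign, was 0.92 on the log2 scale for the collagen genes and 0.28 for all genes tested. Changes of at least 2-fold were found in 9 of the 20 collagen genes, against 8.33% of all genes tested. With the fold alone, 7 of the 20 were higher and 7 lower, against 10.3% and 11.8% of all genes tested (22.1% together). The signed median was 0.33 for the collagen genes and -0.04 for all genes tested, so the collagen genes moved in both directions. These shares describe a family chosen with earlier results of these data known, and no test was made on them.

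The markers of the cell lines were looked at first. ESR1 and PGR, which encode the hormone receptors absent from triple-negative cells, were at or under 0.0331 FPKM in both lines, while ERBB2 had 35.0 FPKM in MDA-MB-231 and 22.8 FPKM in LM2-4175. VIM, a mesenchymal filament gene, had 1355 and 1768 FPKM, and the epithelial keratin genes KRT8, KRT18 and KRT19 were all called lower in LM2-4175. EPCAM was also called lower, with 12.3 FPKM in MDA-MB-231 and 4.93 FPKM in LM2-4175. Of 9 fibroblast markers, 3 reached the filter and 2 of those, LUM and PDGFRB, were called lower in LM2-4175, and the summed level of the list was 14.1 FPKM in MDA-MB-231 and 4.93 FPKM in LM2-4175. Of this list, DCN, PDGFRA, THY1, FAP, POSTN and TCF21 lay between 0 and 0.137 FPKM in both lines. Higher values were found in MDA-MB-231 and LM2-4175 for PDGFRB (9.44 and 1.91 FPKM) and LUM (1.34 and 0.178 FPKM). ACTA2, with 3.07 and 2.71 FPKM, was also above these genes and was not called. The part of the keratin, EPCAM, LUM and PDGFRB differences in the collagen results was not tested. Of 4 endothelial markers found in the table, 3 were under 0.1 FPKM in both lines and KDR was called higher in LM2-4175 (0.971 and 2.48 FPKM). Fewer cells of a type and less RNA per cell cannot be told apart in such bulk values. EEF1A1, which every cell uses, is listed at 0 in both lines with a status that is not OK, so a listed 0 with such a status need not mean silence. The collagen genes listed at 0 have the status OK, so this example does not bear on them. Whether their 0 means silence was not tested.

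**Figure D1:**
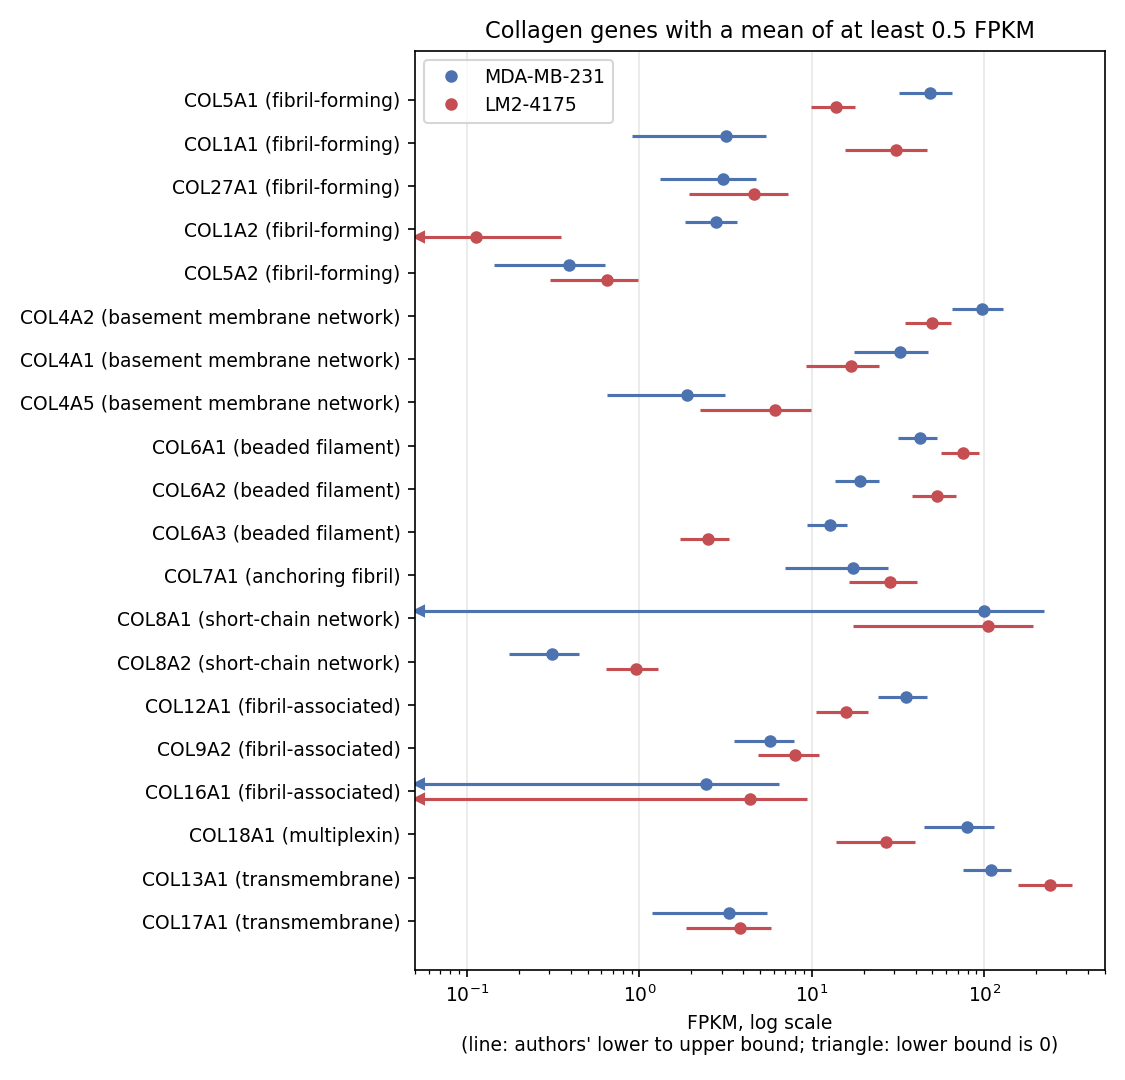
Level of the 20 collagen genes with a mean of at least 0.5 FPKM, ordered by class. Points are the pooled FPKM of each cell line on a log axis, lines run from the authors' lower to upper bound, and a triangle at the left edge marks a lower bound of 0. COL13A1 is highest in both lines, COL1A1 and COL1A2 lie in opposite orders, and the lower bound is 0 for COL1A2 in LM2-4175, for COL8A1 in MDA-MB-231 and for COL16A1 in both.

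The promoters of 4 collagen genes or gene pairs are printed here because the results turn on these chains. COL4A1 and COL4A2, whose values were both lower in LM2-4175, are read in opposite directions from RefSeq start sites with 126 bases between them, and COL6A2 and COL6A3 encode chains of the same trimer but moved in opposite directions. COL13A1 was the highest collagen gene of both cell lines. The sequences are from RefSeq on GRCh38.p14, each 5′ to 3′ on the strand of its gene (for the COL4A1 and COL4A2 pair, on the plus strand, which is that of COL4A2), and end just before the annotated start. Capitals mark matches on either strand to the TATA box (TATAAA), the CCAAT box (CCAAT) and the GC box (GGGCGG).
COL4A1-COL4A2, chr13:110307158-110307283, plus strand: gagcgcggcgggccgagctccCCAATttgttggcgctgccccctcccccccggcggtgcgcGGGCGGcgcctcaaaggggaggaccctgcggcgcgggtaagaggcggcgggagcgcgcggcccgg
COL6A2, chr21:46097862-46098111, plus strand: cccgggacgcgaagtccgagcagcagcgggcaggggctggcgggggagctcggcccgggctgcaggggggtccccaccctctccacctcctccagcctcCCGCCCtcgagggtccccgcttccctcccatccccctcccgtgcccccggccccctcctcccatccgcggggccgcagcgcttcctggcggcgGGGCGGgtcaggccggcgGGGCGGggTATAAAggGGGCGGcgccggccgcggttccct
COL6A3, chr2:237414165-237414414, minus strand: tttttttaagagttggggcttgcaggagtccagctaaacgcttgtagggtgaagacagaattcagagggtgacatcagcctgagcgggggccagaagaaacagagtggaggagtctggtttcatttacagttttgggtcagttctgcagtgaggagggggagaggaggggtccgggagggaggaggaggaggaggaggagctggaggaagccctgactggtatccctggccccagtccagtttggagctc
COL13A1, chr10:69801656-69801905, plus strand: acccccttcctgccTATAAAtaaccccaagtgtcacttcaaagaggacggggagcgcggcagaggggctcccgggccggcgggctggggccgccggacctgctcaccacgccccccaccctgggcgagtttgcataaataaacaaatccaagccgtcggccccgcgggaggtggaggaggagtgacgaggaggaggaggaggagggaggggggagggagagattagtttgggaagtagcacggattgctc
The stretch between COL4A1 and COL4A2 holds 1 CCAAT box and 1 GC box and has a GC content of 80.2%. The COL6A2 promoter, with 79.6% GC, holds 4 GC boxes and 1 TATA box, while none of these motifs was found in the 250 bases before COL6A3, which have 56% GC. The COL13A1 promoter (64% GC) holds 1 match to the TATA box, near the end of the window farthest from the start. Among 35116 RefSeq windows of 250 bases before a start, 10.7% hold the TATA box, 32.0% the CCAAT box and 42.6% the GC box. Some genes have several annotated starts, and 44 such windows were found for 32 collagen genes. Of these windows 18.2% hold the TATA box, 27.3% the CCAAT box and 54.5% the GC box. No window was found for COL1A1, COL1A2, COL2A1, COL3A1, COL5A2, COL6A1, COL6A5, COL8A1, COL9A3, COL14A1, COL20A1 and COL22A1. A match of letters is a description of the sequence and not a binding site.

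Among the 11 genes of the fibril-forming collagens, 5 reached the filter, with 1 called higher and 2 lower. COL1A1 (ENSG00000108821, chromosome 17 of GRCh37, 48261462 to 48278993, minus strand, 51 exons), which encodes the alpha1 chain of type I collagen, rose from 3.16 FPKM in MDA-MB-231, where the authors' bounds were 0.902 and 5.42, to 31.0 FPKM in LM2-4175, where they were 15.5 and 46.5. The value was 9.80 times as high in LM2-4175, for a log2 fold change of 2.94, which was the increase of rank 58 among the 13911 genes tested. Even the nearest bounds were 2.86-fold apart. COL1A2 (chromosome 7, 94024207 to 94060539, plus strand, 52 exons) encodes the alpha2 chain, the partner of alpha1 in the usual type I heterotrimer, and moved the other way. It had 2.76 FPKM (bounds 1.83 and 3.70) in MDA-MB-231 and 0.113 FPKM (bounds 0 and 0.350) in LM2-4175, for a log2 fold change of -1.76 on the scale of FPKM + 1. Without the added 1, the value was 24.4 times as high in MDA-MB-231, and the LM2-4175 value rests on a lower bound of 0. Type I chains thus went from similar levels, with a COL1A1 to COL1A2 ratio of 1.14, to a ratio of 273. The bounds allow 0.244 to 2.96 for the first ratio and at least 44.3 for the second, so these ranges are far apart.

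The type V chains were at unequal levels in both lines. COL5A1 (chromosome 9, 137533649 to 137736689, plus strand), whose alpha1 chain takes part in starting type I fibrils, was among the 5 highest collagen genes of MDA-MB-231 with 48.5 FPKM (bounds 32.2 and 64.8) and fell to 13.8 FPKM (bounds 9.86 and 17.7) in LM2-4175. The log2 fold change was -1.74 and the nearest bounds were 1.82-fold apart. COL5A2, the gene of the partner chain, was much lower, at 0.389 FPKM (bounds 0.144 and 0.634) and 0.645 FPKM (bounds 0.304 and 0.985), and was not called. COL5A1 thus had 124.7 times the level of COL5A2 in MDA-MB-231 (50.8 to 450.6 from the bounds) and 21.4 times in LM2-4175 (10.005 to 58.3), and these ranges overlap. COL27A1 was not called either, at 3.04 FPKM (bounds 1.32 and 4.77) in MDA-MB-231 and 4.59 FPKM (bounds 1.94 and 7.24) in LM2-4175. COL3A1, which encodes the fibrillar collagen that often accompanies type I in tissues, was at 0.0893 and 0.123 FPKM, with lower bounds of 0. The other fibril-forming genes under the filter were COL2A1 (0.111 and 0.147 FPKM), COL24A1 (0.0428 and 0.109 FPKM) and COL11A1 (0.0365 and 0.101 FPKM), while COL5A3 and COL11A2 were listed at 0 in both lines.

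**Figure D2:**
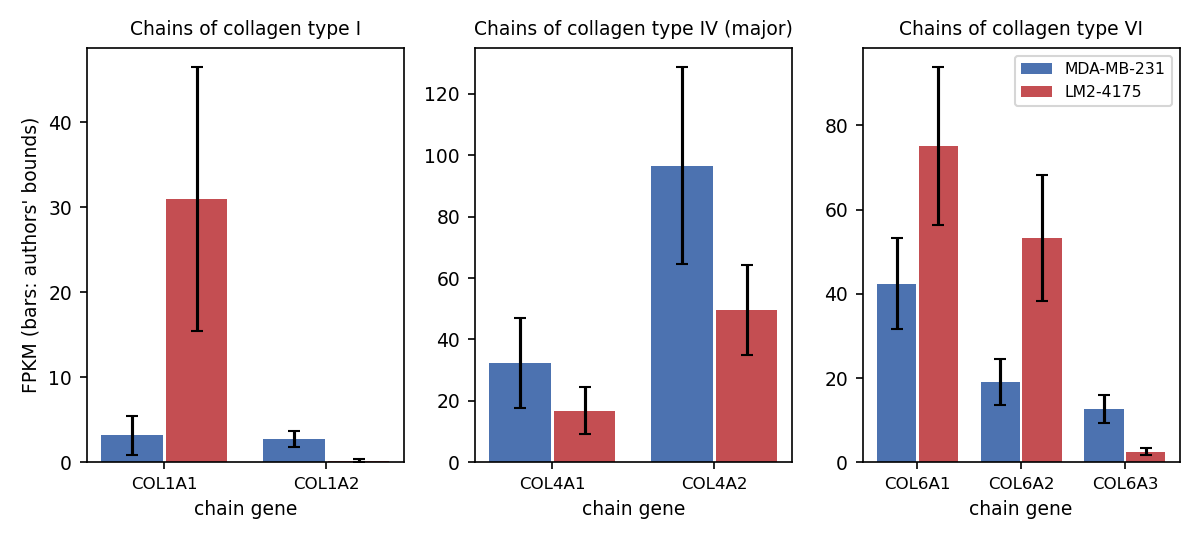
Pooled FPKM of the chain genes of collagen types I, IV and VI in MDA-MB-231 and LM2-4175, on linear axes that start at 0, with bars for the authors' lower and upper bounds. The chains of type I and of type VI change in opposite directions, while COL4A1, which was not called, and COL4A2 both have lower values in LM2-4175.

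Type IV collagen of basement membranes is built mainly from the chains of COL4A1 and COL4A2, and both had lower values in LM2-4175. COL4A2 (chromosome 13, 110958159 to 111165556, plus strand, 48 exons) fell from 96.6 FPKM (bounds 64.6 and 128.5) to 49.6 FPKM (bounds 34.9 and 64.2), for a log2 fold change of -0.95. Its bounds missed each other by only 0.407 FPKM, and after the FPKM of both lines were scaled to the same sum the gene was not called (log2 fold change -0.87). COL4A1 (110801310 to 110959504, minus strand, 52 exons) had 32.3 FPKM (bounds 17.7 and 46.9) in MDA-MB-231 and 16.9 FPKM (bounds 9.31 and 24.4) in LM2-4175, for a log2 fold change of -0.90. In GENCODE, from which these positions come, the spans of COL4A1 and COL4A2 overlap at their starts, unlike the RefSeq starts above, but no exon of one overlaps an exon of the other. COL4A1 was not called because the intervals overlap, although its ratio of 0.522 is close to the 0.513 of COL4A2. MDA-MB-231 had 2.99 times as much COL4A2 as COL4A1 (1.38 to 7.28 from the bounds) and LM2-4175 had 2.94 times as much (1.43 to 6.90). The ratios of the pooled values were thus close although both genes had lower values in LM2-4175, but these wide ranges leave room for a difference.

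The other type IV genes form divergent pairs as well, with 418 bases between the RefSeq start sites of COL4A3 and COL4A4 and 379 bases between those of COL4A5 and the nearer start of COL4A6. COL4A5 (X chromosome, 107683068 to 107940775), whose chain occurs in specialised basement membranes such as that of the kidney glomerulus, had 1.89 FPKM (bounds 0.651 and 3.13) and 6.10 FPKM (bounds 2.26 and 9.93). The log2 fold change of 1.30 was past the fold limit, but the bounds overlap and the gene was not called. COL4A6 had 0.0654 FPKM (bounds 0 and 0.231) and 0.214 FPKM (bounds 0 and 0.632), under the filter. MDA-MB-231 thus held 28.9 times as much COL4A5 as COL4A6, and LM2-4175 held 28.5 times as much. The bounds allow ratios as low as 2.81 for MDA-MB-231 and 3.58 for LM2-4175. They set no upper limit, because the lower bound of COL4A6 is 0 in both lines. The closeness of the pooled ratios therefore does not show that the ratio was kept. COL4A4 reached 0.354 FPKM (bounds 0.219 and 0.490) and 0.529 FPKM (bounds 0.336 and 0.721), and COL4A3 0.0729 and 0.118 FPKM with lower bounds of 0. In all 3 pairs, both genes thus had their higher value in the same cell line, but of these 6 genes only COL4A2 was called. The line was MDA-MB-231 for COL4A1 and COL4A2 and LM2-4175 for the other pairs. A higher value in LM2-4175 was common among collagen genes, with 13 of the 20 tested and 18 of the 24 under the filter.

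The chains of type VI collagen parted as well, with all 3 genes that reached the filter called and not in the same direction. COL6A1 (chromosome 21, 47401684 to 47424964, plus strand, 35 exons) had 42.4 FPKM (bounds 31.6 and 53.2) in MDA-MB-231 and 75.0 FPKM (bounds 56.3 and 93.7) in LM2-4175, for a log2 fold change of 0.81. COL6A2, which lies next to it (47518026 to 47552762, plus strand, 28 exons), rose from 19.05 FPKM (bounds 13.6 and 24.4) to 53.3 FPKM (bounds 38.2 and 68.3), for a log2 fold change of 1.44. COL6A3 (chromosome 2, 238232646 to 238322971, minus strand, 44 exons), which encodes the longest chain of the common type VI trimer, fell from 12.7 FPKM (bounds 9.44 and 15.9) to 2.51 FPKM (bounds 1.71 and 3.31). Its log2 fold change of -1.96 was the decrease of rank 108 among all genes tested, and its nearest bounds were 2.85-fold apart. The ratio of COL6A1 to COL6A3 was 3.35 in MDA-MB-231 (1.99 to 5.63 from the bounds) and 29.9 in LM2-4175 (bounds 17.0 and 54.8). COL6A1 and COL6A2 stayed closer to each other, with a ratio of 2.23 and 1.41. COL6A5, which encodes an alternative to the chain of COL6A3, was listed at 0 in both lines, and COL6A6, another such gene, was at 0 in MDA-MB-231 and near 0 (7.6e-05 FPKM) in LM2-4175.

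COL7A1, which encodes the collagen of the anchoring fibrils below epithelia (chromosome 3, 48601506 to 48632762, 119 exons), had 17.3 FPKM (bounds 7.02 and 27.6) in MDA-MB-231 and 28.6 FPKM (bounds 16.4 and 40.8) in LM2-4175. The log2 fold change was 0.69, and with overlapping bounds it was not called. COL8A1, a short-chain collagen gene with 4 exons, was second only to COL13A1 in both lines at 99.97 and 104.9 FPKM, but its bounds were wide. They ran from 0 to 223.4 FPKM in MDA-MB-231 and, wholly inside that interval, from 17.3 to 192.5 FPKM in LM2-4175. COL8A2, the gene of the other type VIII chain, had 0.311 FPKM (bounds 0.176 and 0.447) and 0.961 FPKM (bounds 0.642 and 1.28). These bounds do not overlap, and COL8A2 missed the call by the fold alone, which was 1.495 on the scale of FPKM + 1 and 3.08 without the added 1. COL10A1, a collagen gene of hypertrophic cartilage, was under 0.01 FPKM in both lines.

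**Figure D3:**
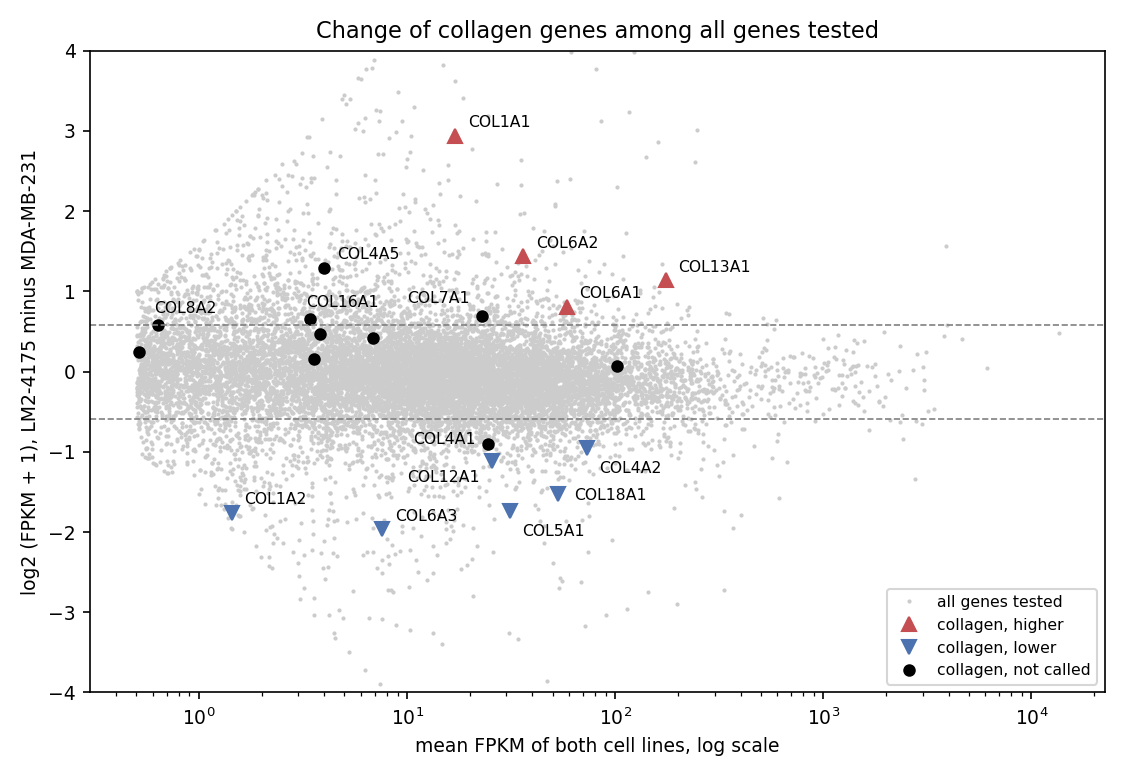
Difference in log2(FPKM + 1) between LM2-4175 and MDA-MB-231 against the mean FPKM of both lines, for all 13911 genes tested (grey) and the 20 collagen genes (symbols), with dashed lines at 1.5-fold. Genes outside the vertical limits of 4 in either direction, 37 in all, are not drawn. The collagen genes called higher and called lower are spread over a wide range of levels.

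Of the 10 fibril-associated collagens and their relatives, 3 reached the filter. COL12A1 (chromosome 6, 75794042 to 75915983, minus strand, 66 exons), whose product binds along type I fibrils, fell from 35.3 FPKM (bounds 24.1 and 46.5) to 15.8 FPKM (bounds 10.5 and 21.1), for a log2 fold change of -1.11. COL9A2 had 5.72 FPKM (bounds 3.55 and 7.89) in MDA-MB-231 and 7.96 FPKM (bounds 4.88 and 11.04) in LM2-4175 and was not called. COL16A1 had 2.43 FPKM (bounds 0 and 6.43) and 4.39 FPKM (bounds 0 and 9.34) and was not called. COL9A3, at 0.275 and 0.362 FPKM, was the highest of this class under the filter, and COL14A1, COL19A1, COL20A1, COL21A1, COL22A1 and COL9A1 were under 0.1 FPKM in both lines.

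COL18A1, a gene of basement membrane collagen whose C-terminal fragment is endostatin, was among the 5 highest collagen genes in MDA-MB-231 and not in LM2-4175. It lies on chromosome 21 (46825080 to 46933634, plus strand, 42 exons) and fell from 79.2 FPKM (bounds 44.7 and 113.6) to 26.8 FPKM (bounds 13.8 and 39.8), for a log2 fold change of -1.53. Exons of SLC19A1 on the opposite strand overlap 18.5% of its exon bases, and SLC19A1 itself had 0.0306 FPKM in MDA-MB-231 and 0.0788 FPKM in LM2-4175. Use of strand in the counting is not stated, so reads of these exons may belong to either gene. COL15A1, the other multiplexin gene, had 0.445 FPKM (bounds 0.126 and 0.763) and 0.474 FPKM (bounds 0.136 and 0.812). With a mean of 0.459 FPKM it was the gene just under the filter, and COL5A2 with 0.517 FPKM was the gene just above it.

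COL13A1, a transmembrane collagen gene with a role at adhesion sites and the neuromuscular junction, held the first place in both cell lines. It lies on chromosome 10 (71561636 to 71724031, plus strand, 41 exons) and rose from 108.9 FPKM (bounds 75.3 and 142.6) to 240.5 FPKM (bounds 157.6 and 323.5), for a log2 fold change of 1.14. This gene alone held 17.7% of the summed collagen FPKM in MDA-MB-231 and 34.9% in LM2-4175. COL17A1, a collagen gene of the hemidesmosomes of epithelial cells, had 3.32 FPKM (bounds 1.18 and 5.46) and 3.82 FPKM (bounds 1.86 and 5.78), with no call. COL23A1 and COL25A1, the other transmembrane members, were under 0.02 FPKM, and COL26A1 and COL28A1, which were placed in no class here, were under 0.1 FPKM in both lines.

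The 24 genes under the filter ranged from a listed 0 to 0.529 FPKM, and none of them had bounds that were apart. For 22 of these the lower bound was 0 in both lines, the exceptions being COL4A4 and COL15A1. Their mean was under 0.1 FPKM in 18 genes and between 0.1 and 0.5 FPKM in 6. COL5A3, COL6A5 and COL11A2 were listed at 0 in both lines, and COL6A6, COL9A1 and COL22A1 in MDA-MB-231 alone, where LM2-4175 had at most 0.0195 FPKM. Values this low do not separate a gene that is off from one that is barely read.

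Summed over all 44 genes, collagen FPKM came to 616.8 for MDA-MB-231 and 689.6 for LM2-4175, or 0.0975% and 0.115% of the FPKM of all genes. Without COL13A1 the sums were 507.9 and 449.1, so the direction of the total depended on this gene. The 5 highest genes held 70.2% of the sum in MDA-MB-231 (COL13A1, COL8A1, COL4A2, COL18A1 and COL5A1) and 75.9% in LM2-4175 (COL13A1, COL8A1, COL6A1, COL6A2 and COL4A2). The transmembrane class went from 112.2 to 244.4 FPKM and the beaded filament class from 74.1 to 130.7 FPKM. The basement membrane network class went from 131.2 to 73.4 FPKM, the multiplexin class from 79.6 to 27.3 FPKM, and the fibril-associated class from 43.8 to 28.6 FPKM. The fibril-forming class had similar sums of 58.1 and 50.6 FPKM, although COL1A1 rose and COL5A1 fell. Part of these sums rests on wide bounds, as COL8A1 makes up nearly the whole of the short-chain network class (100.3 and 105.9 FPKM).

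**Figure D4:**
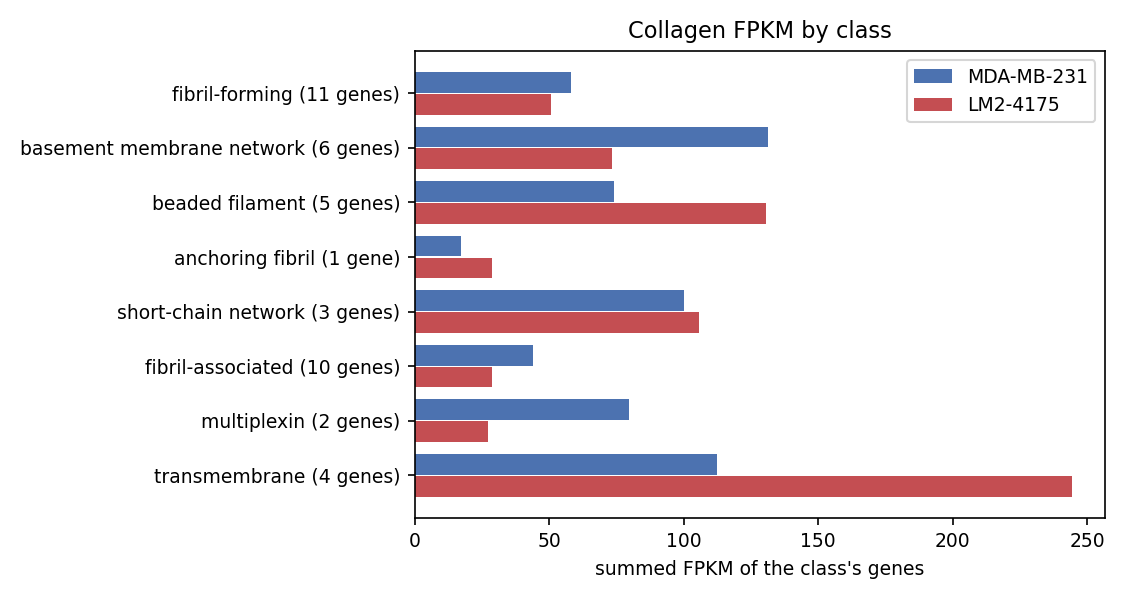
Summed FPKM of the genes of each collagen class in MDA-MB-231 and LM2-4175, on an axis that starts at 0. No error is drawn, since bounds were not computed for the sums, although the single genes have them. The transmembrane and beaded filament classes are larger in LM2-4175, and the basement membrane network, multiplexin and fibril-associated classes are larger in MDA-MB-231.

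Genes close to the collagen genes called were read beside them. The median log2 fold change of protein-coding genes tested was -0.05 in all, and 4.66% of them were called higher and 4.8% lower. Within 3 Mb of COL5A1, 77 of 83 such genes had a lower value in LM2-4175, 18 were called lower and none higher, and their median was -0.49. Around COL1A2 the median of 28 genes was -0.40 with 5 called lower and none higher, and around COL12A1 all 9 neighbours were lower with a median of -0.43 and 1 call. These medians lie in the direction of the collagen gene but are smaller than its change, and their part in the result was not tested. COL6A1 and COL6A2 rose among neighbours with medians of -0.27 over 32 and 31 genes, so they went against their surroundings. COL18A1, on the same chromosome and within 3 Mb of both, fell among neighbours with a median of -0.29. These sets of neighbours overlap and are not separate surroundings, and collagen genes were not counted as neighbours. The neighbours of COL1A1 (54 genes, median -0.02) and of COL6A3 (19 genes, median 0.06) lay near the middle of all genes, and those of COL13A1 had a median of 0.13 over 38 genes. Around COL4A2 the median of 20 genes was -0.19, with 2 called higher and 1 lower.

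Genes that make, bind and cut collagen were read from 3 lists, chosen with earlier results of these data known. Among all genes tested, 4.67% were called higher and 4.61% lower, with a median log2 fold change of -0.04. Of 34 genes for the folding, modification, secretion and cross-linking of collagen, 29 reached the filter, with 4 called higher, 6 called lower and a median log2 fold change of -0.16. The largest change was in FKBP10, which encodes a chaperone of type I procollagen in the endoplasmic reticulum, with 0.425 FPKM (bounds 0.108 and 0.743) in MDA-MB-231 and 67.0 FPKM (bounds 47.2 and 86.9) in LM2-4175. P3H2 (26.8 and 51.6 FPKM, listed as LEPREL1), a prolyl 3-hydroxylase gene, P3H4 (4.37 and 17.1 FPKM, listed as LEPREL4) and the procollagen N-proteinase gene ADAMTS3 (0.239 and 1.18 FPKM) were the others called higher. SERPINH1, the gene of the collagen chaperone HSP47, fell from 129.7 to 68.9 FPKM, the procollagen C-proteinase gene BMP1 from 18.4 to 7.52 FPKM and the lysyl oxidase gene LOX from 41.7 to 18.4 FPKM. PLOD3, P3H1 (listed as LEPRE1) and LOXL4 were also called lower.

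Of 12 collagen receptor genes, 6 reached the filter and 2 were called, both higher, a call given to 4.67% of all genes tested. ITGA2, the alpha subunit of the collagen-binding integrin alpha2beta1, rose from 24.8 FPKM (bounds 17.4 and 32.2) to 51.0 FPKM (bounds 35.9 and 66.2). ADGRG1, listed as GPR56 and encoding a receptor for type III collagen, rose from 18.6 to 43.95 FPKM. ITGB1, the beta subunit, had 667.4 and 759.0 FPKM and was not called, and the receptor kinase gene DDR1 was listed at 0 in both lines. Of 9 genes for the breakdown of collagen, 6 reached the filter, these all had a higher value in LM2-4175, and 3 were called. MMP2 and MMP9 reached the filter only through their LM2-4175 values. The genes left out, MMP8 (0.142 and 0.0122 FPKM), MMP13 (0.179 and 0.0456 FPKM) and FAP (0.0608 and 0.0278 FPKM), had lower values in LM2-4175. The interstitial collagenase gene MMP1 rose from 22.7 FPKM (bounds 17.1 and 28.2) to 643.3 FPKM (bounds 484.0 and 802.7), and the gelatinase genes MMP2 (0.177 and 5.40 FPKM) and MMP9 (0.189 and 0.907 FPKM) rose from low levels. MMP14 (141.0 and 215.3 FPKM) was not called.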

How the data were processed

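Both cell lines were profiled by sequencing of total RNA, with 2 libraries for each. The authors prepared TruSeq libraries, aligned paired reads to hg19 with TopHat 2.0 and quantified GENCODE 19 genes with Cufflinks, and the submitters' processing notes also name Cuffdiff. The deposited values are FPKM, their bounds and a quantification status, 1 set per gene and cell line with the libraries combined. Library size normalization, use of strand and what the bounds cover are not given in the sources used here, and the read depth per library is not in the table. The bounds gave the precision. For the genes tested, the upper one exceeded the value by 38.6% in MDA-MB-231 and 38.1% in LM2-4175 (medians).

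Python 3.11.15, NumPy 2.4.6 and pandas 2.3.3 were used to compute log2 ratios after adding 1 to each FPKM, and Matplotlib 3.10.9 to plot them. Tested genes had OK as status in both lines and a mean of 0.5 FPKM or more, and calls needed a 1.5-fold change and bounds apart. The call rule was also run on simulated data, where the error of each value was set from the width of the MDA-MB-231 bounds. What the deposited bounds cover is not known, so this simulation cannot show how many of the calls here are false. Every collagen gene was described, in full from 0.5 FPKM upward. The members, classes, lists and call rule were chosen with earlier results of these data known. Of the other lists, called genes and at most 5 others were named, except that every gene of the fibroblast list was named. Positions, exons and neighbours were taken from GENCODE 44 on GRCh37, where all 44 genes were matched by Ensembl ID, and promoters from RefSeq on GRCh38.p14. The alternatives were other pseudocounts, filters, thresholds, call rules and scalings. PECAM1, written in the endothelial list, was not analysed here.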

Additional observations from a re-analysis of the deposited data

How the results depend on the processing

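Across 10 alternatives, 179 of 191 values of single collagen genes kept their direction and their side of the call. None turned its direction, which only the scaling to the same sum and the centring on the median could bring about. The level filters cannot change the call of a gene that they keep, so the values under them were the same by design. COL1A1, COL1A2, COL5A1, COL6A2, COL6A3, COL12A1, COL13A1 and COL18A1 were called the same way in every alternative that tested them, though COL1A2 was not tested at a mean of at least 5 FPKM. COL4A2 was not called at 2-fold and when both lines were scaled to the same sum, and COL6A1 was not called at 2-fold. COL8A2 was called higher with a pseudocount of 0.1 (log2 fold change 1.37), with no pseudocount (1.63), by the bounds alone, after scaling to the same sum (0.61) and after centring on the median of all genes (0.62). With the fold alone, 7 collagen genes were called higher and 7 lower, the others being COL4A1, COL4A5, COL7A1 and COL16A1. The same rule called 10.3% of all genes higher and 11.8% lower. The median log2 fold change of the collagen genes was 0.52 with a pseudocount of 0.1, 0.53 with none, 0.057 without the filter, 0.29 at a mean of at least 1 FPKM, 0.069 at a mean of at least 5 FPKM, 0.38 after scaling to the same sum and 0.37 after centring. The level filter was reached by 13 collagen genes at 5 FPKM, and 41 had a value above 0 in either line. Scaling to the same sum gave collagen sums of 599.9 FPKM in MDA-MB-231 and 709.7 FPKM in LM2-4175.

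No paired analysis was possible because the table carries no value per library, and leaving out a replicate was not run for the same reason. How far the libraries of a cell line differ is therefore not known from these values, and the bounds, with a lower one of 0 in MDA-MB-231 for COL8A1 and in both lines for COL16A1, limit what can be said of these genes.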
